A study of Mus musculus with 5 samples.

Results

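The oligoadenylate synthetase family of the mouse is described here in dendritic cells grown from bone marrow (BMDCs) of *Irf8*-OE and control mice. The members were taken by gene name from the deposited list of differentially expressed genes, where 6 of 1355 genes belonged to the family, namely *Oas1a*, *Oas1g*, *Oas2*, *Oas3*, *Oasl1* and *Oasl2*. RNA-seq covered 3 *Irf8*-OE samples and 2 control samples. *Irf8*-OE mice carried a Flag-tagged *Irf8* gene behind a loxP-flanked stop cassette (*Irf8* CAG-LSL), removed by Cre under the *Itgax* promoter, which is active in cells expressing CD11c. The sample labels call the controls wild type, whereas the study describes them as *Irf8* CAG-LSL mice without Cre. All mice were on the C57BL/6 background, 8 weeks old and described as male. All marrow was cultured with 5 ng/ml GM-CSF and 200 ng/ml Flt3L, replated on day 9 and collected on days 15 to 16, and TNF-α at 20 ng/ml was the stimulus named for every sample, although the culture protocol words it as optional, so whether each sample received it is not certain. The labels do not say whether the samples of a group came from separate mice, so the spread between them may be technical.

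Oligoadenylate synthetases are interferon-induced sensors of double-stranded RNA. When bound to such RNA, the active enzymes join ATP into 2′-5′-linked oligoadenylates, small messengers of the antiviral response. *Oas1a* and *Oas1g* encode synthetases of a single unit, and *Oas2* and *Oas3* encode larger ones built of several related units. The Oas-like proteins OASL1 and OASL2 carry ubiquitin-like domains at their ends. Mouse OASL2 has kept synthetase activity and OASL1 has not. OASL1 is known as a translational repressor of *Irf7* mRNA.

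RefSeq start sites (GRCm38.p6) were matched for 5 of the 6 members, all except *Oas2*. The 120 bases before the start are shown because those of *Oas1a*, *Oas1g* and *Oas3* hold the core of the interferon-stimulated response element, a pair of GAAA blocks with any 2 bases (NN) between them, while that of *Oasl2*, the member with the largest change, does not. Capitals mark the matches. The windows lie at chr5:120907526-120907645 (minus strand) for *Oas1a*, chr5:120887614-120887733 (minus) for *Oas1g*, chr5:120777660-120777779 (minus) for *Oas3* and chr5:114896814-114896933 (plus) for *Oasl2*.
Oas1a: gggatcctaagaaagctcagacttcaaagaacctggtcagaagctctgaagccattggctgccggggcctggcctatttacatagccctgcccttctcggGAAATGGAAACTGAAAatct
Oas1g: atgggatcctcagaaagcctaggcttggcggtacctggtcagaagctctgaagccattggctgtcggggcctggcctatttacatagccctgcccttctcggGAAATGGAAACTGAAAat
Oas3: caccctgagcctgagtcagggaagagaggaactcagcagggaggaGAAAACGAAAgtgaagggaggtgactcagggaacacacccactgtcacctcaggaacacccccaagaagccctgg
Oasl2: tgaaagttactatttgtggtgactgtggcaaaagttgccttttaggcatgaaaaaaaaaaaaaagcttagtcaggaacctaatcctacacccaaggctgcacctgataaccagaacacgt

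Both strands of the 300-base window around each start, from 250 bases before it, were searched. *Oas1a* and *Oas1g* each held 2 overlapping matches that shared 1 GAAA block, the first match beginning 20 bases before the start of *Oas1a* and 18 bases before that of *Oas1g*, and *Oas3* held 1 match beginning 75 bases before it. The windows of *Oasl1* and *Oasl2* held none, which says only that these letters are not in them. Of 32851 promoter windows in the reference, 3.44% held the motif. A longer form, the same pair of blocks followed by CT, was found in 0.271% of all windows and in *Oas1a* and *Oas1g* among the members. Over the 250 bases before the start, *Oas1a* and *Oas1g* were identical at 212 of 244 aligned bases (86.9%).

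*Oas1a* and *Oas1g* are near-identical copies, so their separation in the counts has to be read with care. Their coding sequences were identical at 1065 of 1101 bases (96.7%), whereas the identity of all other pairs of members lay between 57.4% and 65.5%. The 36 differing bases were uneven over the 7 coding exons, with 0 in the first exon, 2 in the second exon and 17 in exon 3. The 120 coding bases with the most differences, coding bases 473 to 592 in exon 3, are shown with the differing bases in capitals (GRCm38, minus strand, chr5:120901935-120902054 for *Oas1a* and chr5:120881950-120882069 for *Oas1g*).
Oas1a: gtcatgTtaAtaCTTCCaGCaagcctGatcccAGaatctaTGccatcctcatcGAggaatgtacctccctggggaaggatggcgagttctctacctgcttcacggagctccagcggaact
Oas1g: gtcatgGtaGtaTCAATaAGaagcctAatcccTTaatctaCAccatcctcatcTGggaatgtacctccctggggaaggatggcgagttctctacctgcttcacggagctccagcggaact

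For *Oas1a*, 32.4% of all 150-base windows of the main transcript, the read length of the study, also occurred in a transcript of *Oas1g*, and 30.1% of those of *Oas1g* occurred in *Oas1a*. For *Oas2*, *Oas3*, *Oasl1* and *Oasl2*, 0% of such windows occurred in a transcript of another gene. A single read from a shared window cannot be assigned by its sequence, although its mate may be, and how such reads were counted is not given in the sources used here. The antisense gene *Gm13822* shares 38 of the 2608 exon bases of *Oasl1* (1.46%), and strand use in the counting is not given either.

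The deposited values are normalized counts, that is, reads per gene divided by 1 size factor per sample. In each sample 100% of them were whole multiples of 1 step within a tolerance of 0.01, and 1 read stood for between 0.934 and 1.12 normalized counts. The listed genes held 646123 to 1062127 reads in a sample, and the depth of the whole libraries is not known from the table. Replicates differed by more than sampling noise. *Irf8* itself had 2747 and 2835 normalized counts in the controls against 6021 to 7141 in *Irf8*-OE. The libraries went against the description of all mice as male. *Xist*, the RNA of the inactive X chromosome, had at least 10772 normalized counts in each *Irf8*-OE sample and at most 1.12 in a control, and 4 genes of the Y chromosome, *Uty* and *Kdm5d* among them, had 0 in every *Irf8*-OE sample and 484 to 1385 in the controls. Sex-linked RNA and genotype divide the 5 samples in the same way and cannot be told apart in any comparison here, and no within-sex value can be given. Of 9 defining markers of conventional dendritic cells, 0 were in the table, so the labelled cell type could not be checked from them.

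All 6 members were higher in *Irf8*-OE BMDCs, by 2.22-fold to 6.38-fold on the means of normalized counts, and the groups overlapped for none of them. The table holds genes chosen by the authors for a difference between these same samples, with a smallest absolute log2 ratio of group means of 0.9984. For that reason 99.1% of its genes were called by limma here (adjusted p under 0.05 and absolute log2 fold change above 1), 58.1% were called higher, and the groups were apart in 100% of genes, with *Irf8*-OE higher in 58.8%. The higher genes were 787 of 1343 called, but 509 of 1031 after quantile normalization and 592 of 1150 with rescaling by the trimmed mean of M values (TMM). Both rescalings were computed over the listed genes alone, nearly all of which differ, so they cannot tell which balance is right. The calls of the 6 members therefore describe genes already selected, and the comparisons among the paralogues carry the information that follows. A log2 fold change above 2 was found for 3 members, *Oas1g*, *Oas2* and *Oasl2*. It was found for 335 of all 1355 genes (24.7%), all of them among the 797 genes that were higher in *Irf8*-OE, as the members are. The median log2 fold change of the members was 2.06, beside 1.14 over all 1355 genes and 1.83 over the 787 genes called higher. Log2 fold changes below are on the scale log2(normalized counts + 1), with standard errors (SE) and Benjamini-Hochberg adjusted p-values from limma over the 1355 genes. In bulk RNA, more cells expressing a gene and more RNA per cell cannot be told apart.

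*Oas1a*, which encodes a synthetase with a single catalytic unit, was the most abundant and the least changed member. It had 505 and 477 normalized counts in the controls and 1124, 1071 and 1076 in *Irf8*-OE. The lowest *Irf8*-OE sample was 2.12-fold above the highest control, with little spread in either group. The means were 491 ± 19.6 (SD, n = 2) and 1090.3 ± 29.6 (SD, n = 3), a log2 fold change of 1.15 (SE 0.07, limma adjusted p = 6.6e-06). Of the 787 genes called higher, 670 had a larger log2 fold change. When edgeR rescaled the samples over the listed genes (TMM), *Oas1a* came to 0.84 on the log2 scale and was no longer called.

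*Oas1g*, the neighbouring copy with the same unit structure, changed more from a lower level. It had 49.4 and 43.2 normalized counts in the controls, from 44 and 45 reads, and 266, 243 and 215 in *Irf8*-OE. All *Irf8*-OE samples were at least 4.35-fold above the higher control, and the first *Irf8*-OE sample was the highest. The means were 46.3 ± 4.43 (SD, n = 2) and 241 ± 25.3 (SD, n = 3), a log2 fold change of 2.35 (SE 0.15, limma adjusted p = 7.6e-06).

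*Oas1g* made up 8.92% and 8.30% of the summed normalized counts of both copies in the controls and 19.1%, 18.5% and 16.7% in *Irf8*-OE. The share was therefore higher in every *Irf8*-OE sample than in any control. The sum, which does not depend on how reads were split between the copies but would miss reads left out of both, was 554 and 520 in the controls and 1389.8, 1314 and 1291 in *Irf8*-OE, a log2 difference of 1.31 (SE 0.06).

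*Oas2*, whose protein joins a pair of synthetase units, had 105 and 107 normalized counts in the controls and 556, 474 and 506 in *Irf8*-OE. The coefficient of variation was 1.34% for the controls and 8.03% for *Irf8*-OE, and the lowest *Irf8*-OE sample was 4.45-fold above the highest control. The means were 106 ± 1.41 (SD, n = 2) and 512 ± 41.1 (SD, n = 3), a log2 fold change of 2.27 (SE 0.11, limma adjusted p = 2.1e-06).

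*Oas3*, the longest synthetase and in humans the one that binds long double-stranded RNA best, had 191 and 151 normalized counts in the controls and 617, 636 and 587 in *Irf8*-OE. Here the second *Irf8*-OE sample was the highest, and the controls differed more than the *Irf8*-OE samples did (coefficient of variation 16.7% against 4.06%). The means were 171 ± 28.6 (SD, n = 2) and 613 ± 24.9 (SD, n = 3), a log2 fold change of 1.85 (SE 0.12, limma adjusted p = 8.4e-06).

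*Oasl2*, the Oas-like gene that encodes an active synthetase, had the largest change of the family. It had 147 and 169 normalized counts in the controls and 994, 982 and 1049 in *Irf8*-OE. Its lowest *Irf8*-OE sample was 5.82-fold above its highest control, the widest gap among the members. The means were 158 ± 15.3 (SD, n = 2) and 1008 ± 35.4 (SD, n = 3), a log2 fold change of 2.67 (SE 0.09, limma adjusted p = 7.4e-07), and 211 of the 787 genes called higher had a larger one.

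*Oasl1*, the inactive Oas-like gene, was the least abundant member and the least precisely measured. It had 25.8 and 14.4 normalized counts in the controls, from only 23 and 15 reads, and 61.3, 66.3 and 70.3 in *Irf8*-OE. The groups were still apart, with the lowest *Irf8*-OE sample 2.37-fold above the higher control. The means were 20.1 ± 8.10 (SD, n = 2) and 66.0 ± 4.49 (SD, n = 3), a log2 fold change of 1.72 (SE 0.28, limma adjusted p = 0.00080). Without control replicate 1 the log2 fold change was 2.12, and without control replicate 2 it was 1.32, so its place among the other members rests on which control is read.

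**Figure D1:**
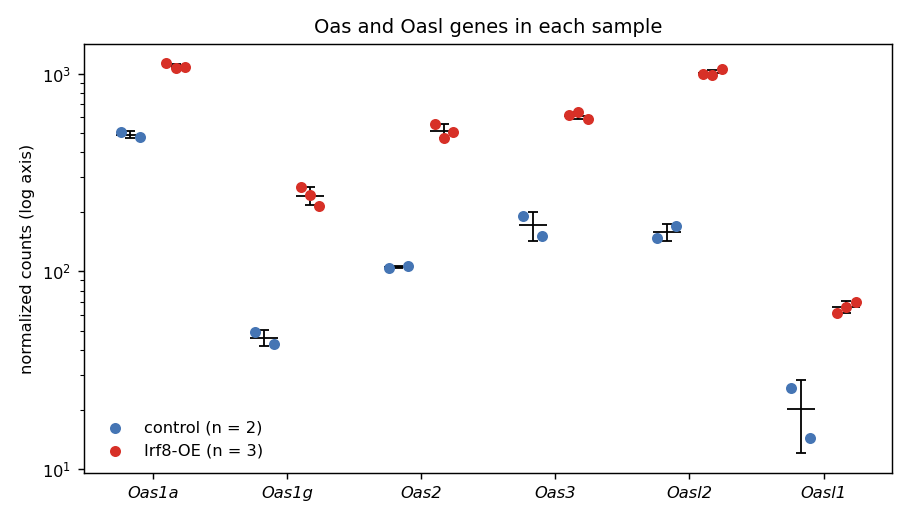
Normalized counts (log axis) of the 6 family members in each control sample (blue, n = 2) and each *Irf8*-OE sample (red, n = 3), with the group mean (bar) and SD (whiskers). Every *Irf8*-OE sample lies above both controls for each gene, with *Oasl2* showing the widest gap and *Oas1a* the narrowest.

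The samples of one group were not ordered alike by the members. Within *Irf8*-OE, replicate 1 was the highest for *Oas1a*, *Oas1g* and *Oas2*, replicate 2 for *Oas3*, and replicate 3 for *Oasl1* and *Oasl2*. Summed over the 6 genes, the samples were close, with 3618, 3472 and 3502 normalized counts in *Irf8*-OE and 1023 and 961 in the controls, a fold of means of 3.56.

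Whether the paralogues changed by different amounts was asked with the log2 ratio of each pair within a sample, which is free of the sample's scaling apart from the added 1 count. In 12 of the 15 pairs the *Irf8*-OE ratios did not overlap the control ratios, whereas this was so in 60.8% of all pairs of the genes called higher. With 3 samples against 2 the two-sided exact permutation test has 10 splits and cannot go below p = 0.1, and all 12 pairs reached that value, which is 0.125 after Benjamini-Hochberg adjustment over 15 pairs. No pair could therefore pass a threshold of 0.05, and the sizes below are given with their SE.

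All 5 ratios of *Oas1a* to another member were lower in every *Irf8*-OE sample than in either control. Its log2 ratio to *Oas1g* fell from 3.38 in the controls to 2.18 in *Irf8*-OE, a difference of -1.20 (SE 0.09). The difference was -1.12 (SE 0.07) against *Oas2* and -1.52 (SE 0.14) against *Oasl2*. Against *Oas3* it was -0.70 (SE 0.14). Against *Oasl1* it was -0.57 (SE 0.37), at -0.93 without control replicate 1 and -0.21 without control replicate 2, so this last one is poorly determined.

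*Oasl2* stood at the other end of the family. The log2 ratio of *Oas3* to *Oasl2* differed by -0.82 (SE 0.28) and that of *Oas2* to *Oasl2* by -0.40 (SE 0.11), without overlap of the groups. The first was -0.55 without control replicate 1 and -1.09 without control replicate 2. Between *Oasl1* and *Oasl2*, which lie side by side, the difference was -0.95 (SE 0.50), at -0.45 without control replicate 1 and -1.45 without control replicate 2. The ratio of *Oas1g* to *Oas3* was higher in every *Irf8*-OE sample, by 0.51 (SE 0.10), and so was that of *Oas2* to *Oas3*, by 0.42 (SE 0.20), at 0.23 without control replicate 1 and 0.60 without control replicate 2. The ratios of *Oas1g* and *Oas2* to *Oasl1* differed by 0.63 (SE 0.34) and 0.55 (SE 0.43). They were 0.33 and 0.13 without control replicate 1, and 0.94 and 0.96 without control replicate 2.

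In 3 pairs the ratios of the groups overlapped. The ratio of *Oas1g* to *Oas2* differed by 0.09 (SE 0.13, exact permutation p = 0.5), and leaving out 1 sample moved it between -0.02 and 0.20. The ratio of *Oas3* to *Oasl1* differed by 0.13 (SE 0.24, exact permutation p = 0.6), between -0.10 and 0.36 with a sample left out. That of *Oas1g* to *Oasl2* differed by -0.32 (SE 0.22, exact permutation p = 0.3), between -0.51 and -0.12 with a sample left out. These values do not show that the members of a pair changed alike.

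**Figure D2:**
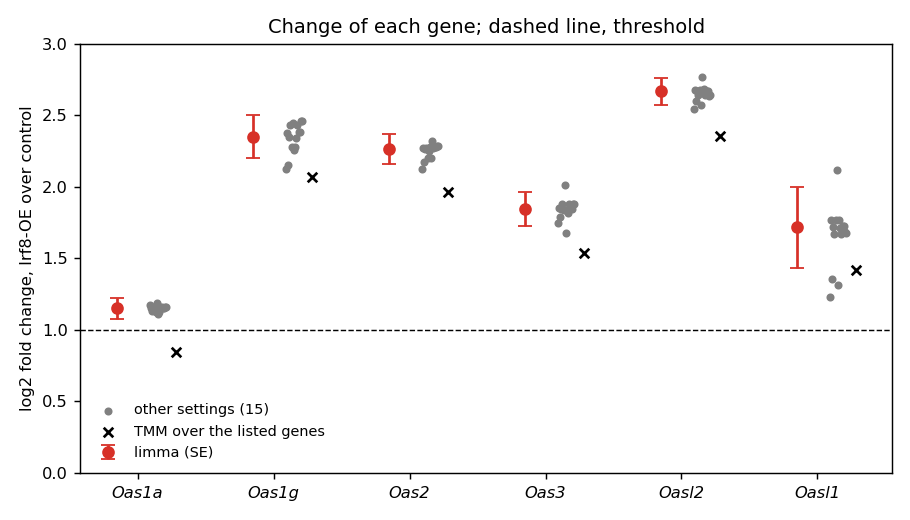
Log2 fold change of *Irf8*-OE over control for each member, with the limma estimate and its SE (red), 15 other settings (grey) and the TMM rescaling over the listed genes (cross). The dashed line marks the threshold of 1, and only *Oas1a* falls below it, at 0.84 with TMM.

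Levels of different genes were compared as normalized counts per kb of the gene length in the deposited table. In the controls, *Oas1a* stood at 260.4 ± 10.4 per kb (SD, n = 2) and *Oasl2*, *Oas3*, *Oas2* and *Oas1g* between 19.8 and 24.8 per kb. *Oasl2* and *Oas3* exchanged places between the controls, as did *Oas3* and *Oas2*, so on this length these levels did not differ beyond their spread, while *Oas2* was above *Oas1g* in both controls by 1.11-fold and 1.30-fold. *Oasl1* was lowest at 7.72 ± 3.11 per kb (SD, n = 2).

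In *Irf8*-OE, *Oas1a* had 578 ± 15.7 per kb (SD, n = 3), followed by *Oasl2* with 158 ± 5.55, *Oas2* with 115 ± 9.24, *Oas1g* with 103 ± 10.8, *Oas3* with 86.7 ± 3.52 and *Oasl1* with 25.3 ± 1.72. Only the ranges of the neighbours *Oas2* and *Oas1g* overlapped, although *Oas2* was above *Oas1g* within each of the 3 samples. *Oas1a* therefore fell from 72.2% ± 0.466 (SD, n = 2) to 54.2% ± 0.0847 (SD, n = 3) of the summed level per kb, and *Oasl2* rose from 6.90% ± 0.986 to 14.8% ± 0.760 of it.

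The order in the middle and the shares depend on the length used. The table counts 6374 bases for *Oasl2* and 7069 for *Oas3*, whereas their main transcripts in GENCODE vM21 have 3123 and 4720 bases. Per kb of main transcript, *Oasl2* was above *Oas3* in both controls (1.16-fold and 1.69-fold) and *Oas3* above *Oas2* (1.19-fold and 1.53-fold), with no overlap of ranges. *Oasl2* reached 323 ± 11.3 in *Irf8*-OE, and *Oas3*, *Oas2* and *Oas1g* lay between 122 and 129.9, with overlapping ranges of *Oas3* and *Oas2* and of *Oas2* and *Oas1g*. On this length *Oas1a* made up 64.1% of the summed control level and 44.1% of that in *Irf8*-OE, and *Oasl2* 12.5% and 24.6%. *Oas1a* remained the highest and *Oasl1* the lowest in both groups under both lengths.

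**Figure D3:**
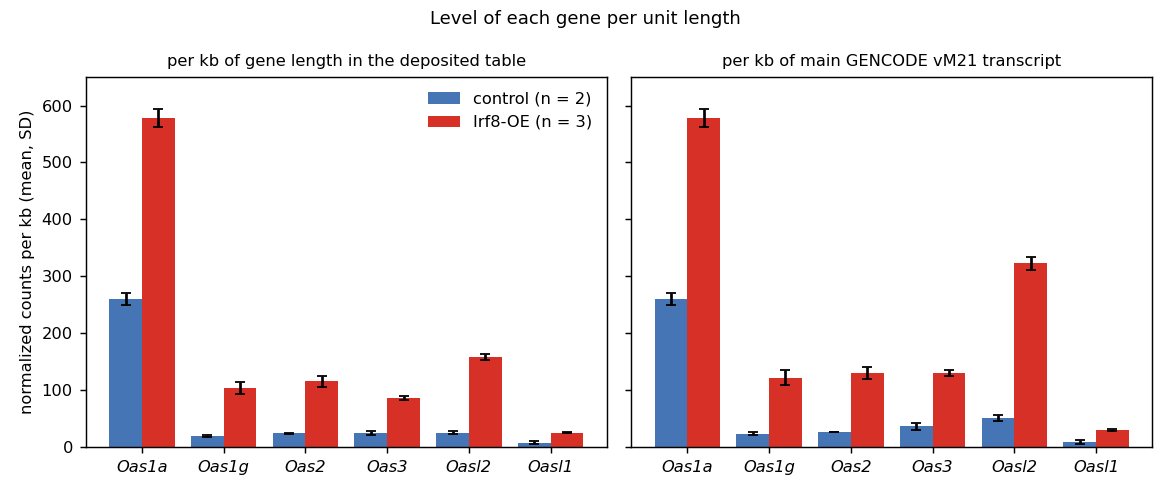
Mean normalized counts per kb (bars, with SD) of each member in control (blue, n = 2) and *Irf8*-OE (red, n = 3) samples, per kb of gene length in the deposited table (left) and of the main GENCODE vM21 transcript (right). *Oas1a* is highest in both groups, and *Oasl2* rises from 158 to 323 per kb in *Irf8*-OE when the shorter length is used.

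The members lie at 2 places on chromosome 5 (GRCm38 coordinates of the table, identical to those of GENCODE vM21 for all 6). *Oasl2* (114896936 to 114912234) and *Oasl1* (114923240 to 114937915) are on the plus strand with 11005 bases between them. *Oas2* (120730333 to 120749853), *Oas3* (120753098 to 120777661), *Oas1g* (120876142 to 120887613) and *Oas1a* (120896256 to 120907521) are on the minus strand, 5792 kb further on. *Oas2* and *Oas3* are 3244 bases apart, and *Oas1g* and *Oas1a* 8642 bases apart.

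Neighbours with the same strand had different log2 fold changes. At the Oasl locus the log2 fold changes were 2.67 and 1.72, and for *Oas2* beside *Oas3* they were 2.27 and 1.85. For *Oas1g* beside *Oas1a* they were 2.35 and 1.15. Which pair of neighbours differed most depended on the setting, since the difference in log2 ratio was -1.20 for *Oas1a* to *Oas1g* and -0.95 for *Oasl1* to *Oasl2* here, but -0.95 and -1.32 after quantile normalization. *Oas1b*, *Oas1c*, *Oas1d*, *Oas1e*, *Oas1f* and *Oas1h*, annotated between or beside these genes, were not analysed here, and neither was the flanking gene *2210016L21Rik*.

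**Figure D4:**
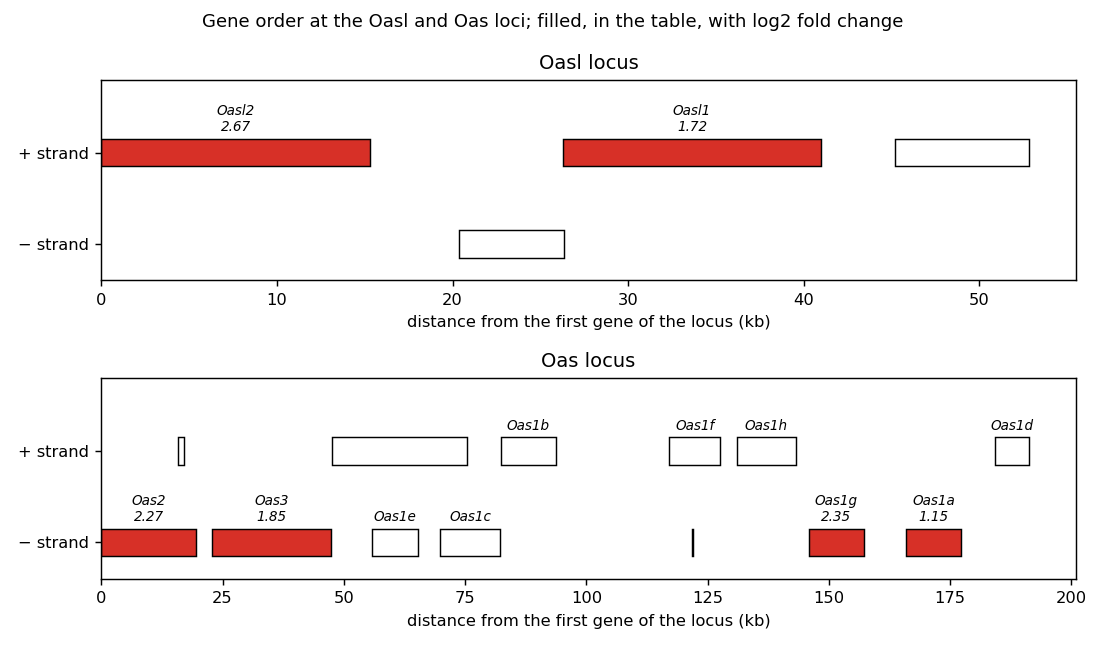
Gene order at the Oasl locus and the Oas locus, with distance in kb from the first gene of each locus and the strands on separate rows. Filled boxes are genes of the table with their log2 fold change, and open boxes are annotated genes that were not analysed here. The 4 members at the Oas locus share the minus strand, and *Oas1g* and *Oas1a*, 8642 bases apart, have log2 fold changes of 2.35 and 1.15.

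Of the 15 genes listed for the oligoadenylate pathway, the 6 members were in the table and called higher. The others, such as *Pde12*, whose product degrades the oligoadenylates, were not analysed here. In 5 further lists of interferon genes, 22 genes other than the members were in the table. Of these, 21 were called higher and 1 lower, beside 58.1% called higher among all 1355 genes. The median log2 fold change of the 22 was 1.72, beside 1.83 over the 787 genes called higher.

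Of 20 gene symbols listed for RNA and DNA sensing, some of them older and newer names of the same gene, 2 were in the table and both were higher. *Dhx58*, which encodes the RNA helicase LGP2, had 189 and 162 normalized counts in the controls and 462, 467 and 417 in *Irf8*-OE, a log2 fold change of 1.35 (SE 0.11). *Ifi204*, a gene of the DNA-binding p200 family, had a log2 fold change of 1.74 (SE 0.12).

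Of 18 genes for interferon receptor signalling, 3 were in the table. *Irf7*, the transcription factor whose translation OASL1 represses, had 97.8 and 118 normalized counts in the controls and 427, 392 and 367 in *Irf8*-OE, a log2 fold change of 1.87 (SE 0.13). *Usp18*, which removes ISG15 from proteins and restrains the interferon receptor, had 1.01 (SE 0.10). *Socs1*, an inhibitor of JAK kinases, was the 1 gene called lower, with 1994 and 1865 normalized counts in the controls and 826, 723 and 960.2 in *Irf8*-OE.

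Of 40 listed antiviral effectors, 17 were in the table, *Oasl1* among them. All 17 were called higher, beside 58.1% of all 1355 genes, with log2 fold changes from 1.07 to 3.14. The 5 most abundant of them were *Ifitm3*, which blocks viral entry, with a log2 fold change of 1.24 (SE 0.08), *Slfn5* with 1.07 (SE 0.08), *Ifi27l2a* with 1.73 (SE 0.12), *Rtp4* with 2.93 (SE 0.10) and *Xaf1* with 1.27 (SE 0.10). Of 18 genes for guanylate-binding proteins and immunity-related GTPases only *Iigp1* was in the table, at 2.35 (SE 0.24), and of 19 interferon genes 0 were.

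The *Irf8*-OE samples were ordered differently in some of these genes. *Ifi44*, with the largest log2 fold change of the effectors, had 125, 163 and 181 normalized counts in *Irf8*-OE replicates 1, 2 and 3. Replicate 1 was the lowest there, as it was for *Ifit1*, *Ifit3* and the member *Oasl1*, whereas *Oas1a*, *Oas1g* and *Oas2* had their highest value in it. Of the most abundant effectors, *Ifitm3*, *Ifi27l2a* and *Xaf1* also had their highest value in replicate 1, while *Slfn5* had its lowest there and *Rtp4* neither. The order therefore does not set the members apart from the effectors. *Ifi44*, *Ifit1* and *Ifit3* were singled out after their values were seen. Of 15 antiviral effectors in the table with a promoter window, 8 (53.3%) held the pair of GAAA blocks, beside 8.78% of 501 genes called higher and 4.47% of 380 genes called lower.

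**Figure D5:**
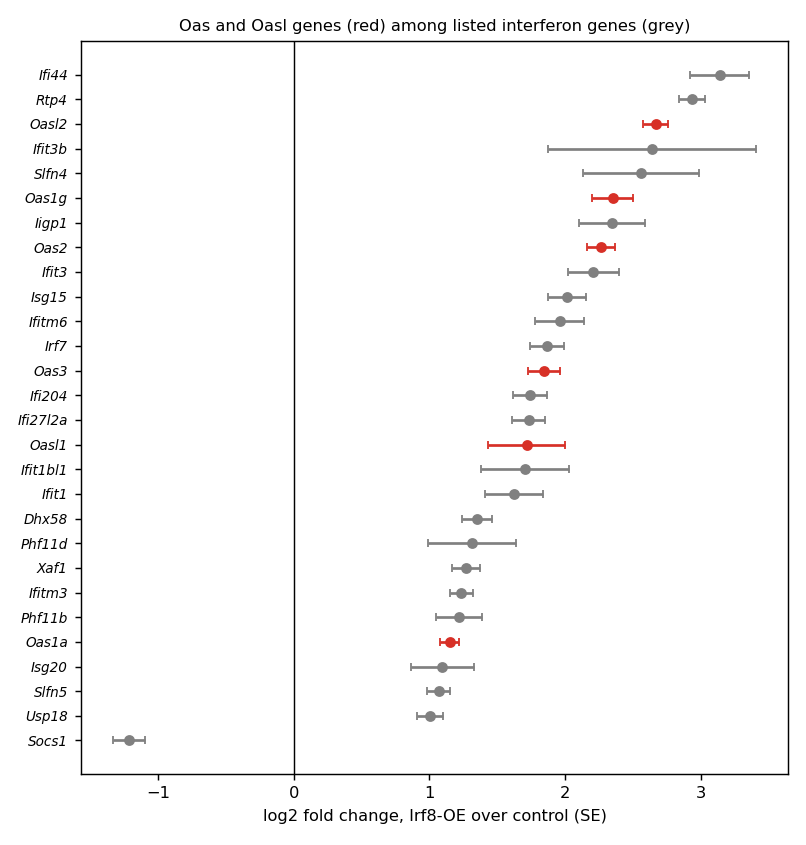
Log2 fold change (SE) of *Irf8*-OE over control for the Oas and Oasl genes (red) and the 22 other genes of the interferon lists that were in the table (grey). The members spread from 1.15 for *Oas1a* to 2.67 for *Oasl2*, and *Socs1* is the only gene below 0.

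The 6 genes whose pattern was most like that of the family as a whole were in none of the interferon lists. Likeness was the root mean square difference over 5 samples from the mean profile of the 6 members, on the log2 scale and centred on the controls. The closest were *Adamts1*, a secreted metalloprotease (0.05), *Gem*, a small GTPase (0.06), *Mab21l3* (0.07), *Tie1*, a receptor of endothelial cells (0.07), *Ly6i* (0.08) and *Stab1*, a scavenger receptor of macrophages (0.08). Of the members themselves *Oas3* was nearest to the mean profile (0.13, place 24 of 1355) and *Oas1a* farthest (0.66, place 449). Since every gene of the table differs between the groups, this measure mostly reads the size of the change.

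Markers of several cell types also moved between the groups, and their part in the family's values was not tested. Among all 1355 genes, 58.1% were called higher. Of 13 monocyte and macrophage markers 6 were in the table and all 6 were called higher, and their summed normalized counts ranged from 5406 to 5453 in the controls and from 25214 to 30242 in *Irf8*-OE. Of 12 mast cell and basophil markers 9 were in the table, 7 lower and 2 higher, with control sums of 230513 to 234955 and *Irf8*-OE sums of 35749 to 39516. *Cpa3* carried most of these sums, with means of 177303 in the controls and 22297 in *Irf8*-OE. The 2 higher genes were *Mcpt8*, with means of 178 and 1233, and *Prss34*, with means of 118 and 1453. In the same order of groups, markers of B and plasma cells (8 of 11 in the table, 8 higher) summed to 262 to 318 and 4776 to 5557, and stromal markers (6 of 10, 6 higher) to 1579 and 7752 to 8776. Markers of plasmacytoid dendritic cells, a main source of type I interferon, were in the table for 2 of 8, *Ly6d* and *Siglech*, and both were called higher, with control sums of 0 and 3.84 and *Irf8*-OE sums of 25.9 to 41.1. *Siglech* was at 0 in both controls and had only 15 or 16 reads in each *Irf8*-OE sample, and *Ly6d* had 12 to 28 reads there. Of 10 markers of type 1 conventional dendritic cells 4 were in the table, 3 higher (*Irf8* among them) and 1 lower, and the control sums were 12579 to 13232 and the *Irf8*-OE sums 10258 to 10895. That fall was carried by *Cd24a*, with means of 10057 and 3855, which other cell types express too, while *Itgae* and *Tlr11* were higher. *Tlr11* had only 17 to 28 reads in the *Irf8*-OE samples. *Irf8* is the gene overexpressed by design, so its rise is no sign of cell type, although the sums include it. Of the type 2 markers 2 of 6 were in the table, 1 higher and 1 lower, with sums of 2193 to 2223 and 4589 to 4752. Neutrophil markers (3 of 9 in the table, 2 higher and 1 lower) summed to 265 to 333 and 1243 to 1299, and T and NK cell markers (3 of 8, 2 higher and 1 lower) to 1146 to 1251 and 381 to 432, with *Cd3e* at 0 in both controls. Most of the latter sum was *Gzmb*, with means of 1189 and 375, while *Cd3e* and *Il2rb* were higher. Likewise the neutrophil sum in *Irf8*-OE was mostly *Mpo* (means 10.8 and 996), while *Ly6g* was lower (164 and 9.68).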

How the data were processed

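Poly(A) RNA of 5 BMDC samples was sequenced as 150-base paired reads. The submitters' processing notes name fastp, HISAT2 2.0.5, featureCounts 1.5.0-p3, DESeq2 1.20.0, edgeR 3.22.5 and the build mm10. The deposited signal values are the authors' normalized counts, reads scaled by a size factor, listed only for genes they had called. The authors' group means, log2 fold change, p-value and adjusted p-value columns were not used. Reads were recovered by dividing by the smallest value above 0 in each sample. Genes were tested with limma 3.58.1 (R 4.3.3, trend) on log2(normalized counts + 1), with no covariate and no filter, and called where the log2 fold change passed 1 in size at a Benjamini-Hochberg adjusted p under 0.05. Alternatives were edgeR 4.0.16 and DESeq2 1.42.0 on recovered reads, TMM, quantile normalization, pseudocounts of 0.1 and 10, a filter of 10 normalized counts, a replicate block, and the omission of single samples. Sequence identity was computed with Biopython 1.88 on GENCODE vM21 transcripts, taking per gene the protein-coding transcript with the longest coding sequence. The text names the 6 members, up to 5 genes of each pathway list by abundance, the 6 genes of most similar pattern and checks of the labels. Members and lists were chosen with earlier results of these data known. Values rest on reads, so an interval or floor computed from reads would cover counting error only. The SE given here rest on the spread between samples instead.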

Additional observations from a re-analysis of the deposited data

How the results depend on the processing

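All 6 members were higher under all 16 alternative settings, and all were called in 15 of them. With TMM over the listed genes 5 were called and *Oas1a* was not, at a log2 fold change of 0.84. TMM lowered the median log2 fold change of all listed genes from 1.14 to 0.84 and quantile normalization to 0.79, where *Oas1a* had 1.18 and *Oasl1* 1.23. Both rescalings used only genes chosen for a difference, so these shifts cannot be told apart from an effect of that choice. With each sample left out, *Oasl1* ranged from 1.32 to 2.12 and *Oasl2* from 2.57 to 2.77. The fits without a control left 1 control, assumed to vary like the *Irf8*-OE samples. Of the pairs of members, 11 to 14 had groups that did not overlap under the 8 settings tried. The ratio of the highest to the lowest member per kb in *Irf8*-OE was 22.9, and 19.1 with the main transcript length, a choice made after the values were seen, as were the tests on reads without *Irf8*-OE replicate 3 (1322 genes called by edgeR and 1304 by DESeq2). Without each *Irf8*-OE sample that ratio was 21.7 to 23.8. Levels per RefSeq coding length were not run, since no protein table was used here. The replicate number shared by titles or by descriptions gave correlations of deviations of 0.01 and 0.05, or -0.05 and -0.04, so it was not taken to pair the samples. With it as a replicate block 1319 and 1271 genes were called, against 1343 without it, and all 6 members in both. The controls of *Oasl1* hold only 23 and 15 reads, which limits its precision.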
